A study of Mus musculus with 8 samples.

Results

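Resting peritoneal macrophages labelled as lacking MED1 were compared with floxed controls by RNA sequencing. The comparison rests on 4 of the 8 libraries of the series, those that received no lipopolysaccharide (LPS). They are WT A and WT B from floxed mice (MED1fl/fl, labelled WT) and KO A and KO B from mice with macrophage deletion (MED1ΔMac, labelled MED1-/-). All mice were C57BL/6J and 8 weeks old, and both genotypes carry the floxed allele unless it was recombined. The other 4 libraries, of the same genotypes after 6 h with LPS at 50 ng/mL, entered the statistical fit and serve as a second look at single genes. The sources used here do not give the Cre driver, the exons removed, the number of mice behind a library or any pooling. The labels do not say that A and B are separate animals, so each p-value measures only the spread between these libraries, which may be technical. Expression is given as RPKM, a read number scaled to transcript length and library depth. Differences are KO minus WT on the log2(RPKM + 1) scale with their standard error (SE). Of 23735 loci, 11272 reached 1 RPKM in 2 or more of the 8 libraries and were tested.

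MED1 is the Mediator subunit through which nuclear receptors, such as PPARγ, LXR and the glucocorticoid receptor, contact the complex that joins enhancers to RNA polymerase II. Mediator itself is built of head, middle and tail modules around MED14 and MED17, with a dissociable kinase module of CDK8 or CDK19, cyclin C, MED12 and MED13. Peritoneal macrophages are tissue-resident phagocytes; their large subset depends on the transcription factor GATA6 and clears dying cells, and their resting programme includes lysosomal, lipid-handling and complement genes.

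Of the 11272 loci, 3 (0.0266%) passed a Benjamini-Hochberg adjusted p under 0.05 in limma, and all were microRNA loci with a value of 0 in every library of the other genotype. Mir1894 was higher in KO (1 locus, 0.00887% of those tested), and Mir5133 and Mir3473e were lower (2 loci, 0.0177%). Their mature strands are shown because they name the only loci called; sequences are from RefSeq (GRCm38.p6), written 5′ to 3′ with the seed, bases 2 to 8, in capitals.
mmu-miR-5133: gCUGGAGCugcggcagcgcag
mmu-miR-3473e: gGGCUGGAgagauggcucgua
mmu-miR-1894-5p: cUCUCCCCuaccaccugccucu
mmu-miR-1894-3p: gCAAGGGAgagggugaagggag
No seed is shared among the 4 strands. Each hairpin matched the mm9 genome exactly once. The Mir5133 hairpin lies at chr9:61970325-61970401 on the minus strand, within an exon of AC123610.1. The Mir3473e hairpin lies at chr5:31969604-31969713 on the minus strand, inside the spans of Rbks and Mrpl33 and in no annotated exon. The Mir1894 hairpin lies at chr17:36054834-36054914 on the plus strand and overlaps an exon of Ppp1r10, a protein phosphatase regulator.

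Mir5133 stood at 96.5 and 80.7 RPKM in WT A and WT B and at 0 in KO A and KO B (difference -6.48, SE 0.21, adjusted p = 5.56e-05). Mir3473e stood at 27.4 and 22.9 RPKM in WT A and WT B and at 0 in both KO libraries (-4.70, SE 0.22, adjusted p = 0.000385). Mir1894 was at 0 in WT A and WT B and at 48.6 and 93.8 RPKM in KO A and KO B (6.10, SE 0.32, adjusted p = 0.000556). All 3 were at 0 in the 4 LPS libraries of both genotypes. The host of Mir1894, Ppp1r10, had 12.9 and 10.1 RPKM in WT and 15.4 and 11.8 in KO, with overlapping groups.

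These values sit at about the smallest step the table can show. Scaled to the depth of the deepest library, the 2 nonzero values of Mir5133 were 59.4 and 59.4 RPKM. At 7 other microRNA loci with a hairpin within 3 bases of its length, each locus's lowest nonzero scaled value was at least 54.1 RPKM, with a median of 56.7. For Mir3473e the scaled values were 16.8 and 16.8 RPKM, against a minimum of 16.7 and a median of 17.4 over 11 such loci. For Mir1894 they were 48.6 and 49.5 RPKM, against a minimum of 42.7 and a median of 45.9 over 16 such loci. The calls thus rest on values at the floor of the table for hairpins of that length. Among the 178 loci tested that hold a small RNA, 67 were at 0 in at least 1 of the 8 libraries, 23 were above 0 in exactly 2, and these 3 were the ones where the 2 were both libraries of 1 group. With the small RNA loci left out, no locus was called in limma, and 84 had an unadjusted p under 0.05.

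Over all loci, 94 (0.834%) had an unadjusted p under 0.05, where 0.05 of the loci would be 564. In 5 of these the symbol of a small RNA is merged with a gene, and the reads of the gene and of the small RNA cannot be separated. One is Cd27, the lymphocyte receptor gene, merged with Mir8113, at 0.391 and 1.06 RPKM in WT and 10.4 and 4.89 in KO. Another is Ctdsp2, a phosphatase gene, merged with Mir26a-2 and Mir546, at 59.6 and 79 RPKM in WT and 283 and 289 in KO. The others are Rnf19a with Mir8097, Ddx39b with Mir8094, and Mir22hg with Mir22.

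The libraries themselves set the scale for what follows. They held an estimated 7.6 to 14.4 M reads, with KO A deepest and KO B shallowest, and 10593 to 11027 loci at 1 RPKM or more. KO B stood apart from the other 3. The Y-linked genes Ddx3y, Eif2s3y, Kdm5d and Uty were at 0 in KO B, and Xist, the X-inactivation RNA, was at 96.5 RPKM, whereas the other 7 libraries of the series had reads of Xist and of all 4 Y-linked genes together. Summed over 15 B cell markers, the level was 763 and 738 RPKM in WT and 705 and 2222 RPKM in KO, and all 15 were highest in KO B. After LPS it was 734 and 533 RPKM in WT and 1661 and 1293 RPKM in KO, so both KO libraries were also above WT there. Summed over 22 markers of T and NK cells, it was 105 and 86.3 RPKM in WT and 149 and 176 RPKM in KO. Of these, 19 were highest in KO B, although Gzma was at 0 in all 4 libraries.

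Of 13 mast cell markers 12 were highest in KO B, but their sums also followed the letters. These sums were 12 and 103 RPKM in WT A and WT B and 7.80 and 214 RPKM in KO A and KO B. Timd4, the phosphatidylserine receptor of long-lived resident macrophages, followed the letters too. It was at 2.47 and 42.9 RPKM in WT and 1.13 and 71.5 RPKM in KO. Of 14 mesothelial and fibroblast markers, 10 were under 1 RPKM in all 4 libraries. Of 14 neutrophil markers 4 were under 1 RPKM in all, among them Ngp at 0. The sum over the 14 neutrophil markers was 538 and 437 RPKM in WT and 460 and 390 RPKM in KO. The macrophage genes Itgam, Csf1r, Cd68 and Emr1 (F4/80) were at 277 RPKM or more in each library, which fits the labelled cell type. In bulk RNA, fewer cells of a type and less RNA per cell cannot be told apart.

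**Figure D1:**
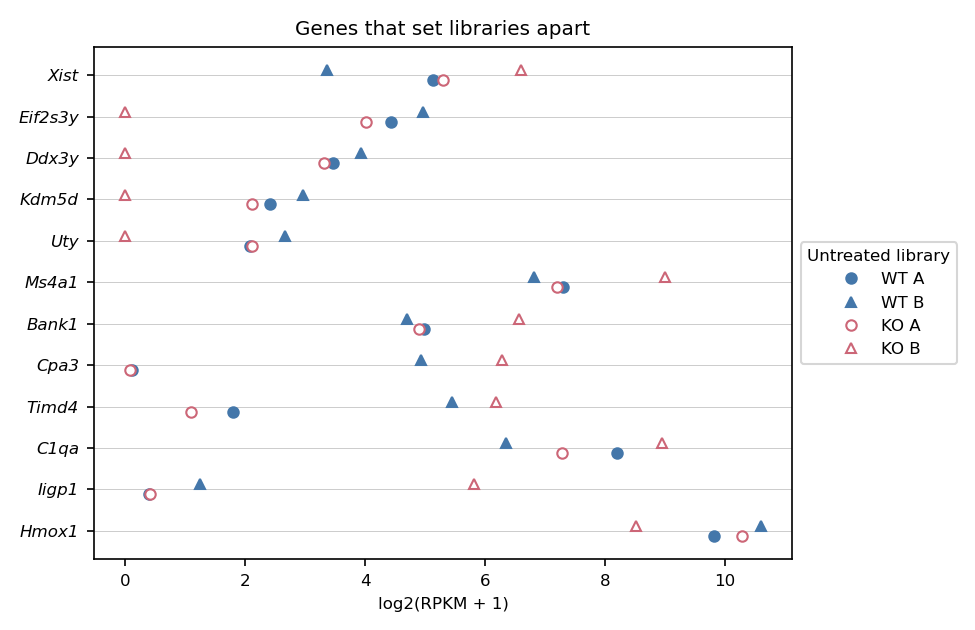
Levels in the 4 untreated libraries, as log2(RPKM + 1), of sex-linked genes, B cell genes (Ms4a1, Bank1), a mast cell gene (Cpa3), macrophage and complement genes (Timd4, C1qa), Iigp1 and Hmox1; circles are A, triangles are B, filled is WT and open is KO. KO B is the lone library at 0 for the 4 Y-linked genes and the highest for Ms4a1, Bank1 and Iigp1, while Cpa3 and Timd4 separate A from B.

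Med1 itself, the targeted gene (chr11:98013468-98054607, minus strand, mm9), was read at similar levels in both genotypes. It had 21.7 and 24.8 RPKM in WT A and WT B and 17.6 and 23.4 RPKM in KO A and KO B. The groups overlapped, and the difference of -0.18 (SE 0.22, 95% interval -0.69 to 0.32) had an adjusted p of 1. After LPS the values were 24.7 and 21.6 RPKM in WT and 24.4 and 20.3 RPKM in KO. The value covers the whole gene, so reads of exons outside a deletion count in full, and the values do not check the genotype labels. The library labels are used as given.

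All Mediator genes tested were at most 0.47 from WT. Of 32 subunit genes, Med1 included, 23 were higher and 9 lower in KO, 0 were called and 0 had an unadjusted p under 0.05 in limma. Their median difference was 0.11, beside 0.07 over all loci. Both KO libraries lay above both WT libraries for 10 and below for 3, beside 17.8% and 5.86% of all loci. Among all loci without overlap 75.2% were higher as deposited, 47.0% with median-ratio scaling and 51.0% with quantile normalization. With median-ratio scaling the Mediator genes stood at 8 above and 6 below, beside 10.1% and 11.4% of all loci. With quantile normalization they stood at 8 above and 5 below, beside 11.5% and 11.1% of all loci. The largest difference of the 32 was that of Med13, of the kinase module, at 17.8 and 16.4 RPKM in WT and 17.7 and 32.4 RPKM in KO; KO A lay at the WT level and KO B above it. Med7, of the middle module, had 8.5 and 7.73 RPKM in WT and 9.72 and 12.5 RPKM in KO, with no overlap (0.40, SE 0.21, adjusted p = 1). The scaffold gene Med14 (9.6 and 10.4 against 9.62 and 12.2 RPKM) and Med24, whose product neighbours MED1 in the complex (12.8 and 9.88 against 12.5 and 11.3 RPKM), overlapped between genotypes.

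Partners of MED1 were likewise close to WT. Of 21 nuclear receptor genes tested, 11 were higher and 10 lower, with a median of 0.01. Pparg, the lipid-sensing receptor, followed the letters, with 4.58 and 1.21 RPKM in WT and 6.22 and 1.32 RPKM in KO. Nr3c1, the glucocorticoid receptor, had 25.3 and 25.9 RPKM in WT and 25.4 and 38.1 RPKM in KO. Both overlapped between genotypes. Of 19 coregulator genes 12 were higher and 7 lower (median 0.04). With median-ratio scaling the medians of these 2 lists were -0.08 and -0.05.

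How far a genotype difference could be read differed between the letters. Of the 6 pairs of untreated libraries WT A and KO A were closest, with an SD of the log2 differences of 0.245 over 11094 loci without small RNAs, and 11 loci at least 2-fold higher and 32 lower in KO. WT B and KO B differed with an SD of 0.527, and 535 loci were at least 2-fold higher and 246 lower. The SD was 0.419 between WT A and WT B and 0.65 between KO A and KO B. Across loci, the KO minus WT differences of the A pair and the B pair correlated at r = -0.18 (Spearman's rho -0.20), a description over loci that are not independent. The sign was the same for 45.5% of loci. Among 8071 named loci at 5 RPKM or more in the higher genotype, 7 were at least 1.5-fold higher in both letters, 28 were at least 1.5-fold lower in both, and 73 went opposite ways.

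**Figure D2:**
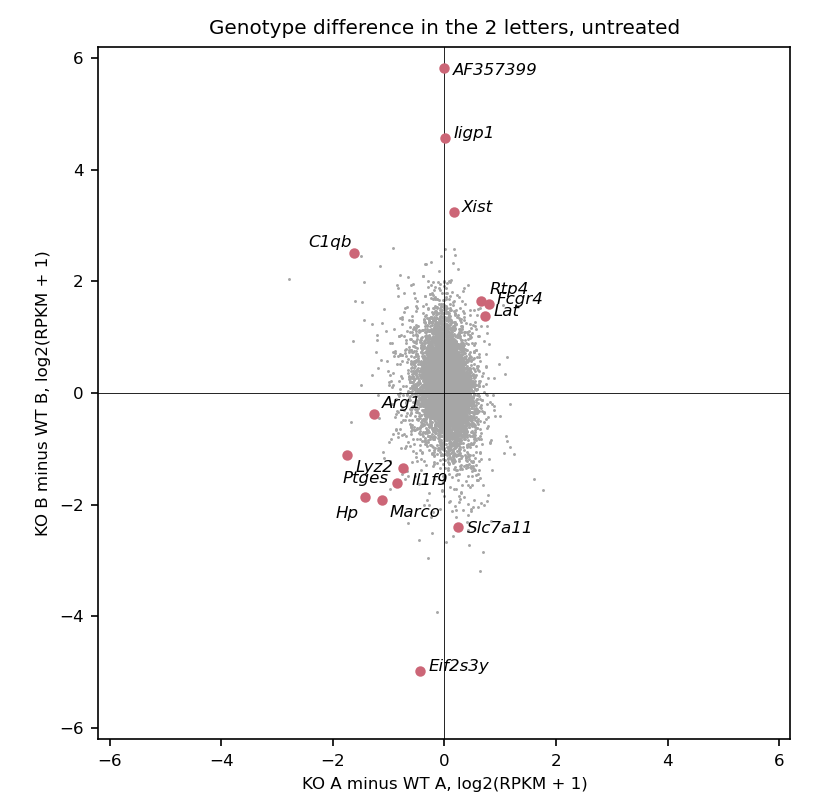
KO minus WT on the log2(RPKM + 1) scale in the A libraries (x axis) and the B libraries (y axis) for 11094 loci without small RNAs, with named genes in red. Points spread further along the y axis than the x axis, and Xist, Eif2s3y and Iigp1 lie further from 0 in the B libraries than in the A libraries.

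Lyz2, encoding the lysozyme of myeloid cells was lower in KO in both letters and in both conditions. Its locus (chr10:116714390-116719377, minus strand, mm9) was at 28588 and 32317 RPKM in WT A and WT B and at 8502.5 and 15001 RPKM in KO A and KO B. Both KO libraries lay below both WT libraries, and the WT mean was 2.59 times the KO mean (difference -1.43, SE 0.42, adjusted p = 1). After LPS, Lyz2 was at 17329 and 13230 RPKM in WT and 5111 and 4547 RPKM in KO (-1.65, adjusted p = 0.924), again with no overlap. Quantile normalization, which sets the top ranks of all libraries equal, gave -0.51. The neighbouring paralog Lyz1, whose near-identical reads the counting could split, was at 1691 and 2414 RPKM in WT and 2231 and 3652 RPKM in KO. Lyz2 is the locus that carries Cre in the widely used LysM-Cre line; which driver was used is not given, and its part in this value was not tested.

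Of 14 macrophage markers, Lyz2 included, 11 were lower and 3 higher, 0 were called, and the median was -0.20. Lyz2 and Cd14, the LPS co-receptor gene, had both KO libraries below both WT libraries (all loci: 5.86%). With median-ratio scaling and with quantile normalization 4 of the 14 did, beside 11.4% and 11.1% of all loci. Csf1r, the receptor for the growth factor of macrophages, had 585 and 948 RPKM in WT and 440 and 679 RPKM in KO. Itgam, an integrin, had 680 and 567 RPKM in WT and 618 and 618 RPKM in KO. Both sets overlapped.

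Arg1, the arginase of alternatively activated macrophages (chr10:24635014-24647276, minus strand, mm9), was the 1 locus of 11272 whose genotype difference was called in the LPS libraries. Without LPS it had 56.1 and 48.2 RPKM in WT and 22.8 and 36.9 RPKM in KO, with no overlap (-0.82, SE 0.27, adjusted p = 1). With LPS it had 325 and 425 RPKM in WT and 11.5 and 12.4 RPKM in KO (-4.85, adjusted p = 0.00261). The difference between these differences was -4.03 (adjusted p = 0.0284). Arg2, the mitochondrial arginase, had 33.8 and 60.9 RPKM in WT and 19.2 and 30.5 RPKM in KO. Of 20 genes of alternative activation tested, Arg1 included, 11 were higher and 9 lower, with a median of 0.06 (-0.01 with median-ratio scaling). Of the 20, Arg1, Chil3 and Tgm2 were lower without overlap (all loci: 5.86%), and Irf4 and Ccl17 higher (all loci: 17.8%). With median-ratio scaling 3 were lower and 1 higher without overlap, beside 11.4% and 10.1% of all loci. Chil3, a chitinase-like protein gene, had 35.2 and 34 RPKM in WT and 26.3 and 15.7 RPKM in KO. Ccl24, an eosinophil-attracting chemokine gene, was lower in KO within each letter, at 74.3 and 278 RPKM in WT and 39.6 and 207 RPKM in KO, and overlapped. Retnla, a secreted product of such cells, had 62.6 and 60.9 RPKM in WT and 151 and 28.1 RPKM in KO, and the mannose receptor gene Mrc1 had 6.52 and 1.94 RPKM in WT and 9.68 and 3.48 RPKM in KO.

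Of 18 genes of microbial killing and prostaglandin synthesis, 14 were lower and 4 higher in KO, beside 35.9% of all loci lower. For 7, both KO libraries lay below both WT libraries, beside 5.86% of all loci. The median was -0.32, and 0.016 without WT B. Lyz2 is one of the 7. Ptges, which makes prostaglandin E2, had 39.2 and 121 RPKM in WT and 21.3 and 38.7 RPKM in KO, so that KO B lay just below WT A (-1.23, SE 0.51, adjusted p = 1). Ptgs2, the inducible cyclooxygenase upstream of it, had 18.3 and 9.65 RPKM in WT and 9.5 and 5.77 RPKM in KO. Ncf1, a subunit of the NADPH oxidase, had 179 and 226 RPKM in WT and 149 and 176 RPKM in KO. Ncf4, another, had 283 and 311 RPKM in WT and 259 and 216 RPKM in KO. For neither gene did the genotypes overlap.

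Further genes were lower in KO, none of them called. They are among those chosen for the smallest p or largest difference within loci without overlap, or for the same direction in both letters. Il1f9 (IL-36γ), an epithelial and myeloid cytokine, had 9.49 and 13.2 RPKM in WT and 5.31 and 4.61 RPKM in KO (-1.04, SE 0.32, adjusted p = 1). Cebpb, a transcription factor of myeloid inflammatory genes, had 183 and 245 RPKM in WT and 143 and 82.9 RPKM in KO (-0.95, SE 0.31, adjusted p = 1). Fas, the death receptor, had 21.7 and 47.5 RPKM in WT and 13.5 and 16.2 RPKM in KO (-1.07, SE 0.40, adjusted p = 1). In these 3 genes the lowest WT library lay above the highest KO library.

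Vegfa, the angiogenic growth factor, had 25.5 and 37.9 RPKM in WT and 17.5 and 17.5 RPKM in KO (-0.79, SE 0.28, adjusted p = 1). Orm1, an acute-phase protein gene, had 6.42 and 4.6 RPKM in WT and 3.05 and 2.56 RPKM in KO. Tst, a mitochondrial sulfurtransferase gene, had 17.9 and 15.9 RPKM in WT and 10.9 and 5.41 RPKM in KO. None of these overlapped either, and for Vegfa the 2 KO libraries were nearly equal.

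For other genes the letters were further apart than the genotypes. Hp (haptoglobin) had 73.2 and 412 RPKM in WT A and WT B and 26.5 and 113 RPKM in KO A and KO B. Marco, a scavenger receptor, had 45.4 and 528 RPKM in WT and 20.3 and 139 RPKM in KO. Fpr1, the formyl peptide receptor that senses bacterial peptides, had 34.8 and 146 RPKM in WT and 17.3 and 43.6 RPKM in KO. In each, KO was below WT in both letters, and KO B was above WT A, so the groups overlapped. Spp1 (osteopontin) ran the other way by letter, at 1586 and 389 RPKM in WT and 906 and 131 RPKM in KO.

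Cytokine and chemokine genes went both ways. Of 20 cytokine genes 13 were lower and 7 higher (median -0.14), beside 35.9% of all loci lower. Of 21 chemokine genes 12 were lower and 9 higher (median -0.04). The medians of these 2 lists were 0.02 and 0.005 in the A libraries and -0.40 and -0.27 in the B libraries. Cxcl2 and Cxcl3 were the chemokine genes lower without overlap (all loci: 5.86%), and 2 were higher (all loci: 17.8%). Cxcl2 had 54.2 and 75.7 RPKM in WT and 32.3 and 45.3 RPKM in KO. Cxcl3 had 21.5 and 109 RPKM in WT and 15.5 and 16.6 RPKM in KO. Tnf had 16 and 27.8 RPKM in WT and 18.1 and 12.3 RPKM in KO, and Il1b had 13.5 and 44.9 RPKM in WT and 9.77 and 16.6 RPKM in KO. Both overlapped. Of 24 regulators of NF-κB, the transcription factor downstream of TLR4, 19 were lower and 5 higher, 3 without overlap (all loci: 5.86%), with a median of -0.17. That median ranged from -0.29 to 0.013 when each library was left out. With median-ratio scaling 8 of the 24 were lower without overlap, beside 11.4% of all loci. Ier3, an early NF-κB target, was one, at 87.8 and 123 RPKM in WT and 68.3 and 67.6 RPKM in KO.

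Interferon-response genes, which cells switch on to resist viruses, were nearly all higher in KO. Of 36 tested, 35 were higher, 0 were called, and 21 had both KO libraries above both WT libraries, beside 17.8% of all loci. The count was 18 with median-ratio scaling and 19 with quantile normalization, beside 10.1% and 11.5% of all loci. A difference above 0 was seen in 64.1% of all loci, whose median was 0.07; that of the 36 genes was 0.54. It was 0.20 in the A libraries (32 of 36 higher, beside 58.3% of all loci) and 0.79 in the B libraries (34 of 36 higher, beside 60.1%). Between KO and WT after LPS the median of the 36 genes was 0.54, beside 0.05 over all loci.

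Rtp4, an interferon-induced receptor transporter gene, had 9.32 and 7.48 RPKM in WT and 15.2 and 25.7 RPKM in KO (1.15, SE 0.30, adjusted p = 1). Oas3, a sensor of double-stranded RNA, had 6.14 and 3.64 RPKM in WT and 11.5 and 7.53 RPKM in KO (0.84, SE 0.35, adjusted p = 1). Usp18, a negative regulator of interferon signalling, had 7.35 and 7.92 RPKM in WT and 11.5 and 12.9 RPKM in KO (0.61, SE 0.27, adjusted p = 1). Each was at least 1.5-fold higher in both letters, and no KO library reached down to a WT library.

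Irf7, the transcription factor that amplifies the response, had 16.9 and 16.3 RPKM in WT and 24.7 and 28.2 RPKM in KO, with no overlap. Ifit1, which binds foreign RNA, was low, at 0.896 and 1.43 RPKM in WT and 1.73 and 5.81 RPKM in KO. Isg15, the ubiquitin-like modifier, had 9.18 and 10.3 RPKM in WT and 10.8 and 15.5 RPKM in KO.

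The size of the untreated interferon difference depended on KO B. Without KO B the median of the 36 genes was 0.20, beside 0.03 over all loci. With the level of the Y-linked genes, which is 0 in KO B, as a covariate it was -0.02, beside 0.10 over all loci. The GBP and IRG GTPases, a family induced by interferon-γ against intracellular microbes, showed the dependence on KO B most. All 14 tested were higher in KO, with a median of 0.11 in the A libraries and 1.92 in the B libraries. After LPS their median was -0.19. Iigp1 was at 0.32 and 1.38 RPKM in WT, 0.327 in KO A and 55.2 in KO B. The B cell sum of KO B, 2222 RPKM, moves with these values, and its part in them was not tested.

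Promoters of the interferon genes were searched for the core of the interferon-stimulated response element, spelled GAAA, any 2 bases, GAAA or, for the other strand, TTTC, any 2 bases, TTTC. A promoter with several or overlapping matches was counted once. In the 250 bases before a RefSeq start, the core was present in 11 of the 25 interferon genes that had a promoter entry (44.0%). This compares with 3.27% of 8627 tested genes and 3.46% of 27025 genes with an entry. The genes were listed as interferon-response genes, so that share does not bear on the genotype difference. The core was present in 6 of the 15 whose KO libraries lay above both WT libraries and in 5 of the other 10. A match is a description of letters and not of binding. For 3 genes with no overlap between genotypes, 90 of these 250 bases follow on the gene's strand (GRCm38.p6), with all matches, overlapping ones included, in capitals, so that the repeated GAAA units can be seen beside the values of Ifit1, Oas3 and Isg15 above.
Ifit1: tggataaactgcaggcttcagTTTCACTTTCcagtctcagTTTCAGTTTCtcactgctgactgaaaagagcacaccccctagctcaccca
Oas3: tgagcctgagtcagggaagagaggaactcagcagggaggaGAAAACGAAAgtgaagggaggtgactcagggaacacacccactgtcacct
Isg15: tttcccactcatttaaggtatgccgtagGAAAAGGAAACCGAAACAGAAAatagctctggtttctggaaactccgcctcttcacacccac
They lie at chr19:34640764-34640853 (plus strand, Ifit1), chr5:120777685-120777774 (minus strand, Oas3) and chr4:156200835-156200924 (minus strand, Isg15).

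Both KO libraries lay above both WT libraries for 2004 loci, and of those outside the interferon genes the ones with the smallest p or the largest difference included the following. Fcgr4, an activating receptor for IgG, had 20.2 and 25.6 RPKM in WT and 35.7 and 79.9 RPKM in KO (1.20, SE 0.41, adjusted p = 1). Lat, an adaptor best known from T cells and mast cells, had 4.83 and 2.86 RPKM in WT and 8.67 and 9.03 RPKM in KO (1.05, SE 0.33, adjusted p = 1). Gng2, a G protein subunit, had 13.6 and 10.1 RPKM in WT and 19.7 and 24.9 RPKM in KO (0.86, SE 0.27, adjusted p = 1). Lat is itself among the T and NK markers, whose sum was also higher in both KO libraries than in both WT libraries. Of the 17 of these markers tested, 8 were higher in KO in the A libraries (median 0), beside 58.3% of all loci. In the B libraries 16 were higher (median 1.23), beside 60.1%. The sum in KO A includes Cd27 merged with Mir8113, at 10.4 RPKM. The part of T and NK cells in the Lat values was not tested.

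Cd164, a sialomucin, had 92.4 and 108 RPKM in WT and 135 and 155 RPKM in KO, with differences of 0.54 in the A libraries and 0.52 in the B libraries. Psd4, an exchange factor for ARF GTPases, had 15.6 and 12.6 RPKM in WT and 20.8 and 27.9 RPKM in KO. Kctd12, a BTB-domain protein gene, was higher chiefly in KO B, at 29 and 27.1 RPKM in WT and 37.6 and 84.4 RPKM in KO.

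**Figure D3:**
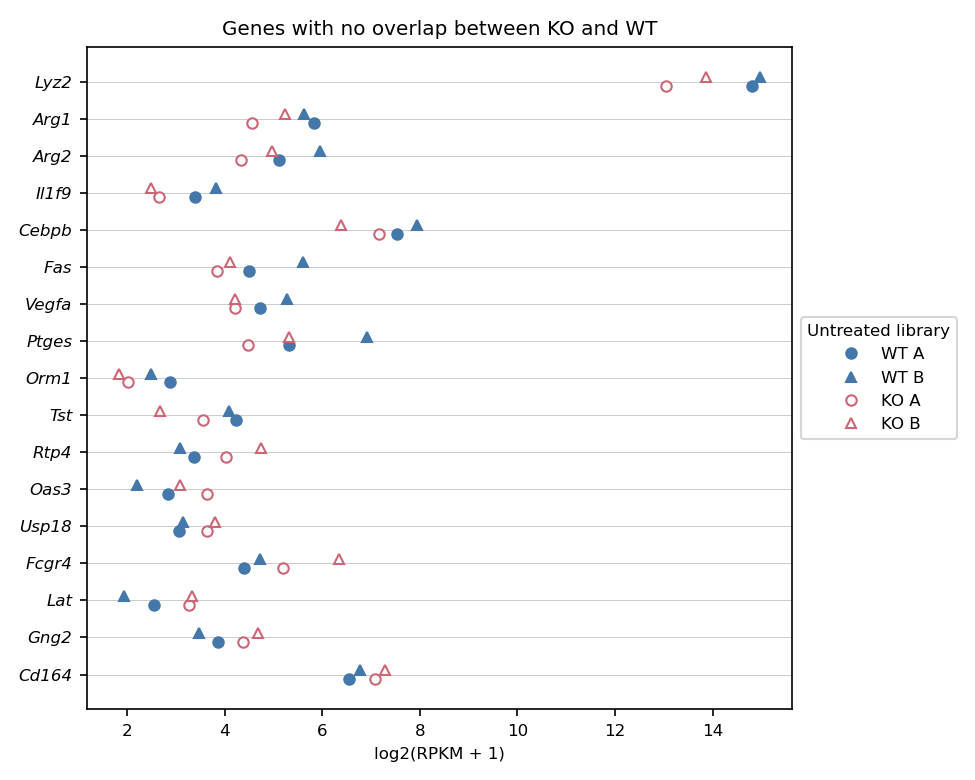
Levels in the 4 untreated libraries, as log2(RPKM + 1), of genes whose 2 KO libraries both lie below (Lyz2 to Tst) or above (Rtp4 to Cd164) both WT libraries; circles are A, triangles are B, filled is WT and open is KO. Lyz2 runs from 28588 and 32317 RPKM in WT to 8502.5 and 15001 RPKM in KO, and Ptges shows WT A and KO B side by side.

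The 34 genes chosen for the smallest p or the largest difference without overlap, 16 higher and 18 lower in KO, were then read in the LPS libraries. These share no sample with the untreated ones, but they entered the fit that gave the p-values. The reading is thus a description and not an independent test. Of the 16, 11 were also higher after LPS, beside 58.9% of all loci. Of the 18, 12 were also lower, beside 41.1%. Arg1 was the 1 called there. The Y-linked Ddx3y, Eif2s3y and Kdm5d are among the 18, and Xist is among the 16.

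Lipid genes, which PPAR, LXR and SREBP factors control, had small differences. Of 24 genes of sterol and fatty acid synthesis, 21 were lower in KO and 9 had both KO libraries below both WT libraries, beside 5.86% of all loci, with a median of -0.16. The median was -0.28 in the A libraries (23 of 24 lower, beside 41.4% of all loci) and -0.11 in the B libraries (15 of 24 lower, beside 39.6%). Mvd, an enzyme of the mevalonate pathway, had 18.8 and 26.6 RPKM in WT and 13.4 and 15.9 RPKM in KO (-0.58, SE 0.24, adjusted p = 1). Fdps, further along the pathway, had 55.4 and 54 RPKM in WT and 39.1 and 38.9 RPKM in KO (-0.48, SE 0.40, adjusted p = 1). In both genes no library of one genotype reached the other.

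Targets of PPAR and genes of fatty acid oxidation were 15 higher and 5 lower of 20 (median 0.09), and LXR targets were 8 higher and 10 lower of 18 (median -0.07). Cd36, the fatty acid and lipoprotein scavenger, had 983 and 960 RPKM in WT and 1415 and 712 RPKM in KO. Abca1, which exports cholesterol, had 63.4 and 36.1 RPKM in WT and 47.6 and 35.6 RPKM in KO. Fabp4, a fatty acid carrier, had 817 and 642 RPKM in WT and 634 and 435 RPKM in KO, the 1 of these with no overlap (-0.46, SE 0.32, adjusted p = 1).

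Several programmes went opposite ways in the letters. Over all loci, 58.3% were higher and 41.4% lower in KO in the A libraries, and 60.1% and 39.6% in the B libraries. Targets of NRF2, the factor of the oxidant response, were all 14 lower in KO by the mean of the letters, with a median of -0.57. In the A libraries, however, 12 of 14 were higher (median 0.33), and in the B libraries 14 of 14 were lower (median -1.46). Hmox1, the heme oxygenase gene, had 904 and 1554 RPKM in WT and 1258 and 368 RPKM in KO, with KO B lowest and WT B highest.

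Markers of the large peritoneal macrophage were the reverse. In the A libraries 19 of 20 were lower in KO (median -0.46), beside 41.4% of all loci. In the B libraries 16 of 20 were higher (median 0.72), beside 60.1%. Gata6, the master factor of that subset, was close in all, at 9.13 and 8.74 RPKM in WT and 7.24 and 11.6 RPKM in KO. Complement genes were 15 of 18 lower in the A libraries and 14 of 18 higher in the B libraries, beside the same shares of all loci. C1qa, part of the recognition molecule of the classical pathway, had 293 and 81.1 RPKM in WT and 155 and 497 RPKM in KO.

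Genes of the respiratory chain were 62 of 79 higher in the A libraries, beside 58.3% of all loci. In the B libraries 61 of 79 were lower, beside 39.6%. Genes of glycolysis and HIF targets had a median of 0.01 in the A libraries and -0.46 in the B libraries. Ribosomal protein genes were 35 of 78 higher in the A libraries and 74 of 78 in the B libraries, beside 58.3% and 60.1% of all loci. For the respiratory chain, NRF2, complement and large macrophage lists the 2 letters had medians of opposite sign, and letter and genotype effects within KO B cannot be told apart with 1 library each.

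**Figure D4:**
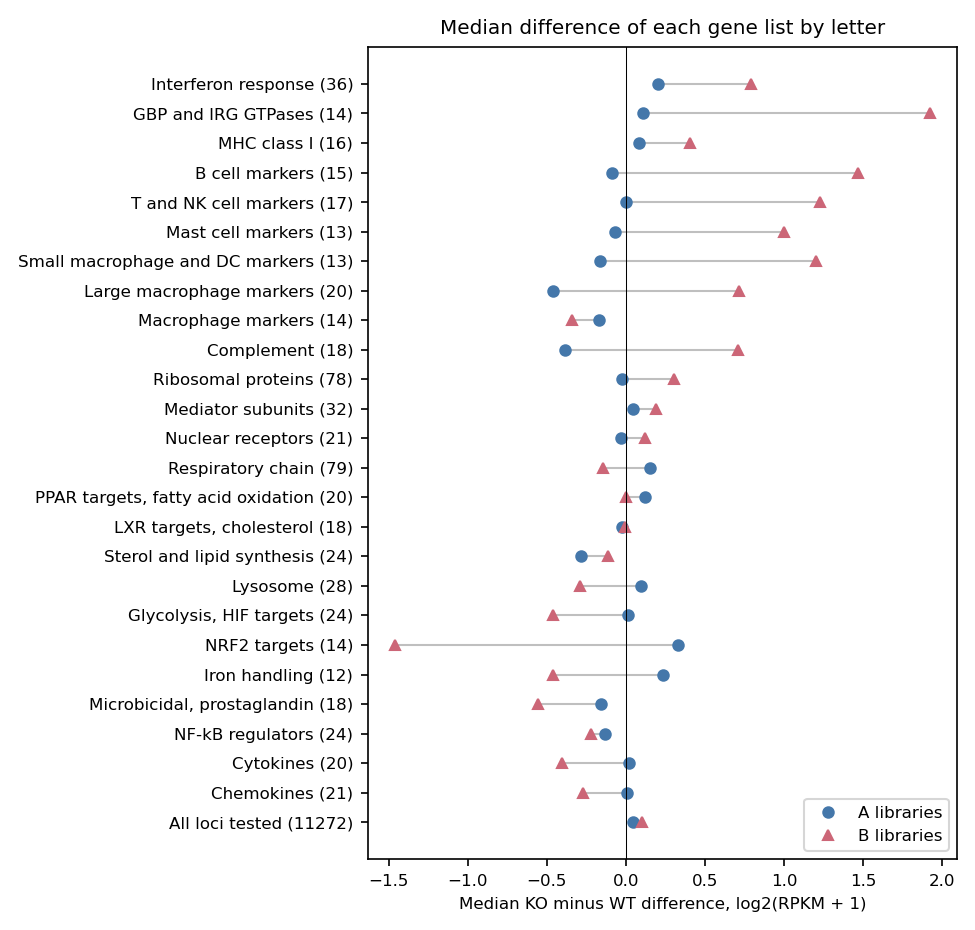
Median KO minus WT difference, log2(RPKM + 1), of each gene list (number of genes tested in brackets) in the A libraries (circles) and the B libraries (triangles), with all loci at the bottom. Interferon, sterol synthesis and microbicidal genes are among the lists with both symbols on 1 side of 0, as are all loci. NRF2, large macrophage, complement and respiratory chain genes are among those with symbols on opposite sides.

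The design bounds differences better for some genes than for others. The 95% interval of the difference lay within 1 log2 unit of 0 on both sides for 8065 of 11272 loci (71.5%), with a median half-width of 0.63. For 722 loci at 100 RPKM or more the median half-width was 0.67. Eif3k, a translation initiation factor gene, had 132 and 127 RPKM in WT and 133 and 133 RPKM in KO, with an interval from -0.37 to 0.45.

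Among macrophage genes, Itgam was bounded between -0.55 and 0.54 and Gata6 between -0.53 and 0.61. For Timd4 the interval ran from -3.89 to 3.91. A 2-fold difference in either direction was thus outside the interval of Itgam and Gata6 and inside that of Timd4.

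**Figure D5:**
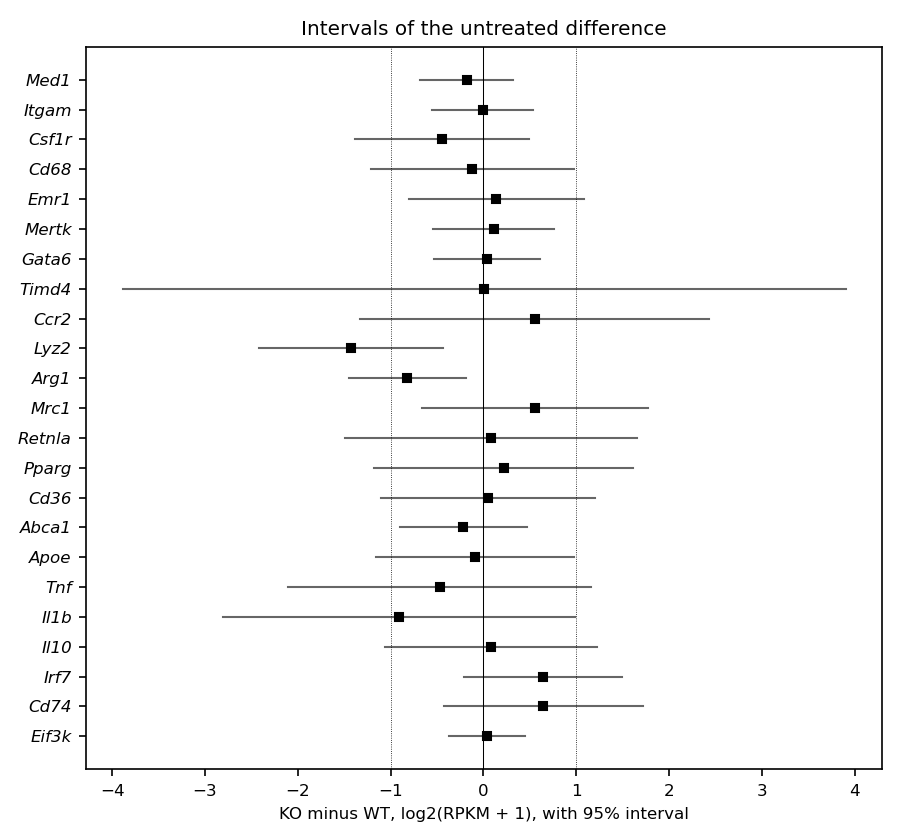
KO minus WT difference (squares) with its 95% interval (lines) from limma, on the log2(RPKM + 1) scale, for Med1, macrophage genes and the narrowly bounded Eif3k; dotted lines mark a difference of 1. The intervals of Lyz2 (-2.42 to -0.43) and Arg1 (-1.45 to -0.19) exclude 0 before adjustment, and that of Timd4 is the widest.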

How the data were processed

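RNA was sequenced from 8 libraries, 2 in each of 4 groups. Per the submitters' processing notes, bcl2fastq, TopHat2 2.0.14 and Cufflinks 2.2.1 were used with the mm9 build; the sources used here do not give the annotation, strandedness or read pairing. The deposited values are RPKM computed by the authors, in 1 table of 24192 lines; 457 lines repeat a locus under another symbol, which left 23735 loci, each used once. All sample columns were used.

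In place of read totals, depth was worked out from the spacing of low RPKM: 83.6% of 2681 loci with low values held whole multiples of 1 step (tolerance 0.1 read plus 0.02 per read), and 590 genes with 1 transcript set the scale. Over the 8 libraries this gave 6.99 to 14.4 M reads. One read on 1 kb then stands for 0.0695 to 0.143 RPKM, which limits low genes and short loci.

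Loci reaching 1 RPKM in 2 or more libraries were fitted as log2(RPKM + 1) with limma 3.58.1 in R 4.3.3, with 1 mean per group over all 8 libraries and a variance trend. Tests were two-sided, p-values were adjusted by Benjamini-Hochberg over 11272 loci, and a locus was called under 0.05. Because values are log2(RPKM + 1), differences of low genes are understated. The fit was also run on simulated data with independent normal noise. Those data held no spread shared by letter and no outlying library, so the run does not show how the fit handles such features. The labels do not say whether the library letters pair the samples. Deviations from group means correlated by letter in all 6 pairs of groups (r from 0.20 to 0.41), over loci that are not independent. The Y-linked Ddx3y was at 0 in KO untreated B and at 11.4 RPKM in KO LPS B. Comparisons within a letter thus group libraries by label only.

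Named were Med1, called loci, the 10 genes with the smallest p and the 10 with the largest difference in each direction at 5 RPKM or more without overlap, up to 4 members of each of 39 gene lists, the 10 narrowest intervals at 100 RPKM or more, and a fixed set of macrophage genes; some are left out of the text. Ifit1, Isg15, Lyz1, Med14, Med24, Ppp1r10, Cd14, Tgm2, Ccl17, Ncf1, Ncf4, genes merged with a small RNA, sex-linked genes and genes at least 1.5-fold different in both letters were named after their values were seen. The members and lists were chosen with earlier results of these data known. The list of genes encoded by the mitochondrial genome was not analysed here. Gene positions are from GENCODE vM1 on mm9, matched by symbol. Alternatives covered the pseudocount, filters, scaling, the samples fitted, a replicate block, small RNA loci and leaving out each library; the Y-linked covariate and the letters taken alone were chosen after seeing the data. Summaries were made in Python 3.11.15 (pandas 2.3.3, numpy 2.4.6) and figures with matplotlib 3.10.9. A few genes of the rule are not reported here.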

Additional observations from a re-analysis of the deposited data

Results flagged for a closer look

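The genotype difference of 4 loci depended on LPS by the interaction term of the limma fit. For Arg1 the difference was -0.82 without LPS and -4.85 with LPS, an interaction of -4.03 (adjusted p = 0.0284). The other 3 were the called microRNA loci, at 0 in all LPS libraries: Mir1894 with an interaction of -6.10 (adjusted p = 0.00666), Mir3473e with 4.70 (adjusted p = 0.00467) and Mir5133 with 6.48 (adjusted p = 0.000691), each at about the smallest nonzero level of the table.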

How the results depend on the processing

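Mir1894 had an adjusted p of 0.111 with the 4 untreated libraries alone and Mir3473e of 0.13 with a filter at 5 RPKM. The count of 3 called loci was 2 to 4 under other pseudocounts, filters, scalings, variance models and the fit of the untreated libraries alone, and 0 with small RNA loci left out (84 at an unadjusted p under 0.05). Leaving out each library in turn gave 3 to 5 calls, with 5 without WT untreated A; 1252 loci had an unadjusted p under 0.05 without KO untreated A and 43 without WT untreated B, beside 94 with all libraries. With the replicate block, paired by letter, the same 3 loci were called, 158 had an unadjusted p under 0.05, and no other call changed. With the Y-linked covariate 3 were called, and 49 had an unadjusted p under 0.05.

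The Med1 difference ranged from -0.38 to 0.012 when each library was left out, with 0.012 without KO untreated A. Marco ranged from -3.28 to 0.23, with 0.23 without WT untreated B. Spp1 ranged from -2.57 to 0.20, with 0.20 without KO untreated B, and was 0.11 with the Y-linked covariate, and Isg15 was -0.22 with that covariate. As deposited, 2004 loci had both KO libraries above both WT libraries and 661 below (75.2% higher); median-ratio scaling gave 1137 and 1284 (47.0%) and quantile normalization 1300 and 1251 (51.0%). The median over all loci was 0.07 as deposited and -0.01 with median-ratio scaling. Over the fits without 1 library, list medians ranged from 0.20 (without KO untreated B) to 0.81 for interferon genes, from -0.28 to -0.12 for sterol synthesis genes (-0.44 with the covariate), from -0.47 to 0.016 (without WT untreated B) for microbicidal genes, and from -0.42 (without KO untreated B) to 2.41 for GBP and IRG genes. The cause was not tested. With 2 libraries a group, the estimated depth limits genes near 1 RPKM and short loci.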
